A study of Mus musculus with 3 samples.

Results

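The genes described here are 45 protein-coding genes of the DNA replication machinery of mouse embryonic stem cells, of 32285 gene identifiers in the data. They were listed by symbol, with earlier results of these data known. All 45 were found by identifier and detected in every library. They were divided into origin licensing and firing (19 genes), polymerases and other fork factors (21), nucleotide synthesis (3) and replication-coupled chromatin assembly (2), and within these into 11 roles.

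The cells were E14 (129/Ola background), an established mouse embryonic stem line cultured on gelatin in serum with leukemia inhibitory factor. Cycloheximide, a drug that blocks translation elongation, was added 24 h after seeding at 250 µg/mL, dissolved in 0.007% ethanol, for 3 h or for 6 h. Control cells received ethanol alone for 6 h, so the 3 h library has no ethanol control of its own duration. Each of the 3 groups was 1 library of cells that had been trypsinised, frozen and thawed before droplet-based 3' single-cell RNA sequencing, with no replicate. The comparisons below are therefore between libraries, without a test between conditions, and their 95% intervals cover counting error only.

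As background, replication origins are bound by the origin recognition complex, on which Cdc6 and Cdt1 load the Mcm2-7 helicase in G1 phase, while geminin holds Cdt1 inactive from S phase on. Cdc45 and the GINS complex join the loaded helicase when an origin fires, polymerase alpha with primase starts each strand, and polymerases delta and epsilon extend it with the Pcna clamp. Many of these genes are known targets of E2F factors, and embryonic stem cells spend much of their short cycle in S phase.

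Because E2F-type sites are the best known shared promoter element of this machinery, promoter letters are shown before the values. RefSeq promoter windows of 300 bases (250 before and 50 after the start, GRCm38.p6) were found for 36 of the 45 genes. The letters TTTCCCGC, TTTGGCGC, TTTCGCGC and TTTGCCGC were searched on both strands, and matches that overlap one another were counted once per gene. Of the 36 genes, 14 held at least 1 match (38.9%), against 2.60% of 27025 genes in the table. The letters CCAAT, a common promoter element, were in the windows of 23 of the 36 genes (63.9%), against 41.1% of all genes. The Mcm5 promoter is printed because Mcm5 had the highest ratio of the Mcm2-7 genes at 6 h and its matches lie outside the gene; capitals mark overlapping matches to TTTCGCGC and TTTGGCGC. Prim1 had no match in its window and the highest ratio of the polymerase alpha and primase genes at 6 h. Its printed stretch ends where the first annotated exon begins. Both are given 5' to 3' on the strand of the gene, Mcm5 from chr8:75109259-75109508 (plus strand) and Prim1 from chr10:128014965-128015167 (plus strand).
Mcm5: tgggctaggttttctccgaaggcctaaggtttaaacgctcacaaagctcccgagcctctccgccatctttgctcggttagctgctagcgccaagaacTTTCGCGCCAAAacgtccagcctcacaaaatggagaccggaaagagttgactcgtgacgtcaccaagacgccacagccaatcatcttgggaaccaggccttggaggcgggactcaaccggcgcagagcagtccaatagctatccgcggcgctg
Prim1: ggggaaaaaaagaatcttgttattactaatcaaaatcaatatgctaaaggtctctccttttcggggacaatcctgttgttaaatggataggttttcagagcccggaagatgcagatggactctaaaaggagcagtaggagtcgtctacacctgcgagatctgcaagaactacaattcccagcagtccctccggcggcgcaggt

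Matches before the start of 5 other members are shown in 30 bases each, because these genes range from the lowest to the highest ratio of all 45. Capitals again mark the matches. In the GENCODE M21 annotation the Orc1 match (chr4:108579416-108579445, plus strand) overlaps an exon, the Cdc6 match (chr11:98908002-98908031, plus strand) lies in an intron, and the Gins3 match (chr8:95633507-95633536, plus strand) lies in a UTR. The Mcm6 (chr1:128359797-128359826, minus strand) and Pola1 (chrX:93632275-93632304, minus strand) matches lie outside their genes.
Orc1: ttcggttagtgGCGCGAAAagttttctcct
Cdc6: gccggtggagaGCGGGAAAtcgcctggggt
Mcm6: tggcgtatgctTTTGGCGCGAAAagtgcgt
Gins3: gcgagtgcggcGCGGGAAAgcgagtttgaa
Pola1: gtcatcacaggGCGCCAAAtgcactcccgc

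The median log2 ratio at 6 h was 0.42 in the 14 genes with a match (range -0.71 for Orc1 to 1.82 for Gins3) and 0.42 in the 22 without one (range -0.30 to 1.22). At least 1.5-fold higher at 6 h were 4 of the 14 genes with a match and 8 of the 22 without one. Of the 7608 genes averaging 10 CPM or more, called all genes from here on, 22.1% were. The share of the genes with a match is near that background, and the difference between the sets was not tested. The sequences are those of the reference strain, a match is a run of letters and not a shown binding site, and these data do not measure binding.

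Cells were taken as barcodes with at least 15000 UMIs (unique molecular identifiers, 1 per captured RNA molecule) and 1 to 20% mitochondrial UMIs. This kept 2187, 1739 and 2554 cells in the control, 3 h and 6 h libraries, the order used for every set of 3 values below. Median depths were 43160, 51726 and 46200 UMIs with 6038, 6776 and 6631 genes detected. The libraries shared at most 3 kept barcodes with one another. The mitochondrial share was 4.57%, 3.51% and 2.94% of UMIs, and its part in the results was not tested. The 10 embryonic stem cell markers were present in all 3 libraries, Pou5f1 at 533, 579 and 465 CPM, but their levels differed. By CPM 9 were higher than the control at 3 h (64.1% of all genes), and 7 were lower at 6 h (35.9%). At least 1.5-fold lower at 6 h were 2 against the control (7.79% of all genes) and 5 against 3 h (2.52%). Summed fibroblast markers were at 5.56 to 5.97 CPM with Col3a1, Postn and Lum at 0. Summed markers of primitive endoderm (22.6 to 30.2 CPM), the germ layers (13.7 to 19.3 CPM) and the two-cell-like state (0.007 to 0.583 CPM) were also low.

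The 45 replication genes, a list chosen with earlier results of these data known, took a larger share of the transcriptome after cycloheximide. Their summed CPM, a gene's UMIs scaled to a common library total, was 4673, 5686 and 6357, so that the treated libraries were 1.22-fold and 1.36-fold the control. The control was the lowest of the 3 libraries and the 6 h library the highest. For a further list of 40 replication genes, described below, the summed CPM was 1.06-fold and 1.12-fold the control. By CPM 39 of the 45 genes were higher and 6 lower at each time, where 64.1% of all genes were higher and 35.9% lower. At 3 h the 8 genes at least 1.5-fold higher were Orc5, Cdc6, Cdt1, Mcm10, Gins1, Gins3, Rpa2 and Fen1, and 1 gene, Orc1, was at least 1.5-fold lower. Among the 7608 genes averaging 10 CPM or more, 13.9% were at least 1.5-fold higher at 3 h and 2.13% at least 1.5-fold lower, so the members' counts at 3 h were near the background. At 6 h 16 of the 45 were at least 1.5-fold higher, where 22.1% of all genes were, and 1 was at least 1.5-fold lower, where 7.79% of all genes were. At least 2-fold higher at 6 h were 5 genes, Gins3, Dscc1, Orc5, Rpa2 and Cdc6, against a background of 8.65%. The count at 1.5-fold was above the background share at 6 h, and the count at 2-fold was near it.

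The median log2 ratio of the 45 genes was 0.26 at 3 h and 0.41 at 6 h, beside 0.11 and 0.17 over all 7608 genes. The members lay above the median gene in 34 cases at 3 h and 37 at 6 h. TMM scaling uses a trimmed mean of the genes' log2 ratios and did not put the median gene at equality. With it the members' medians were 0.09 and 0.12 and those of all genes -0.06 and -0.12. TMM left 6 members at least 1.5-fold higher at 3 h (8.6% of all genes) and 8 at 6 h (11.6%). With mean UMIs per cell the members' medians were 0.53 and 0.52, and those of all genes 0.38 and 0.27. A scaling moves the log2 ratio of every gene by 1 constant. For TMM it was -0.17 at 3 h and -0.29 at 6 h, and for mean UMIs per cell 0.27 and 0.11, so the order of the genes stays while the sign of small ratios can change. The direction is called for a gene below where CPM, TMM, mean UMIs per cell and median-of-ratios size factors gave the same sign. By that measure 28 genes were higher at 3 h (42.0% of all genes), 2 were lower (10.9%) and 15 changed sign. At 6 h 29 were higher (39.4% of all genes), 5 were lower (28.4%) and 11 changed sign. The 5 lower genes were Orc1, Gmnn, Prim2, Pold2 and Rfc3.

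**Figure D1:**
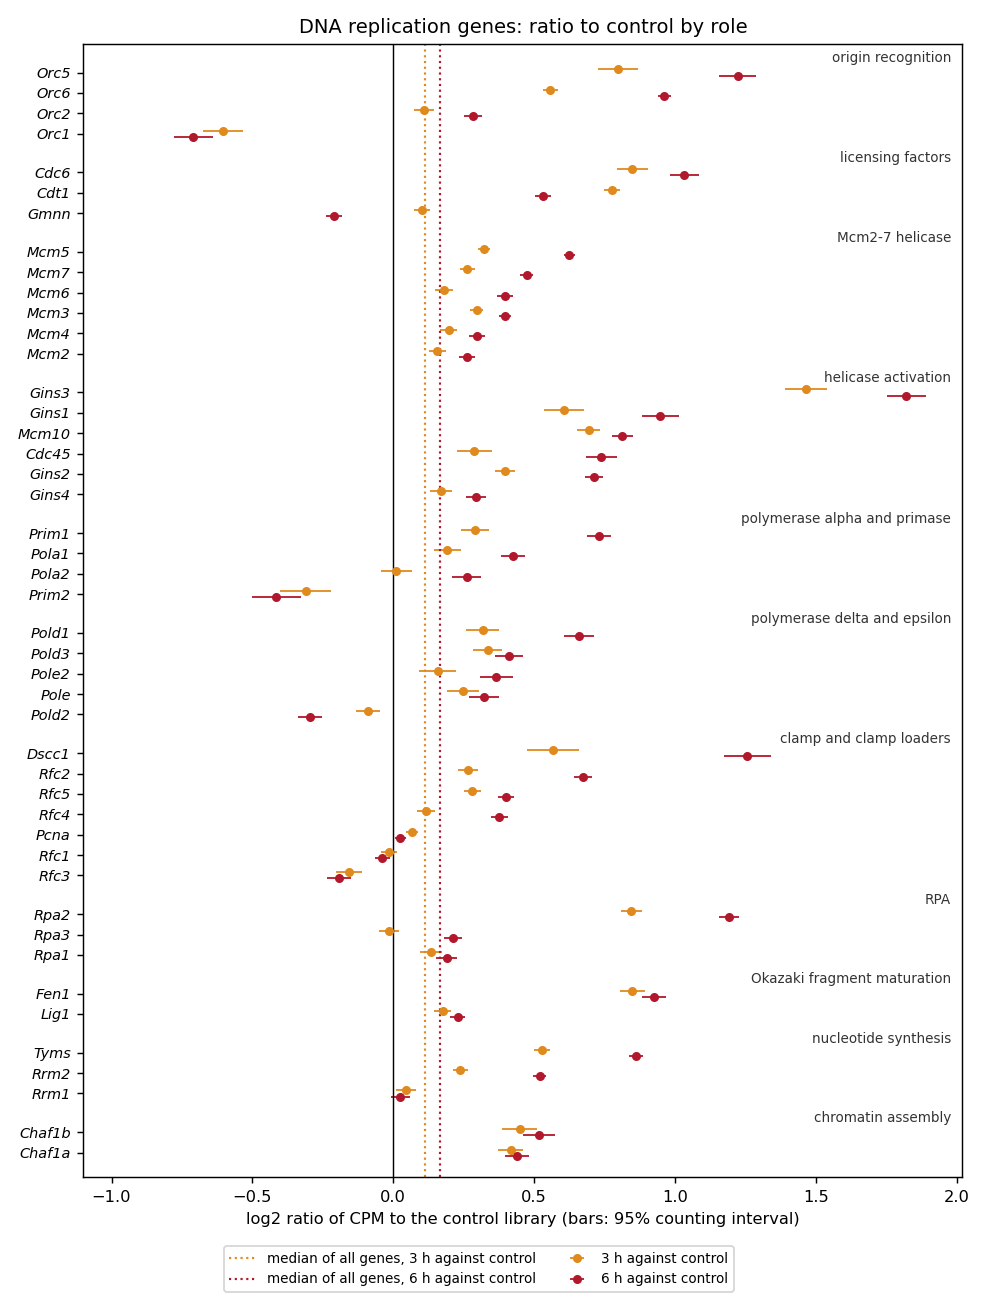
Log2 ratio of CPM to the control library at 3 h (orange) and 6 h (red) for the 45 genes by role, with 95% counting intervals as bars and the medians of all 7608 genes as dotted lines. Most members sit to the right of the dotted lines, Gins3 is farthest right at 1.82 and Orc1 farthest left at -0.71 at 6 h.

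Between the treated libraries, which involves no control, 36 genes were higher at 6 h than at 3 h by CPM and 9 lower (57.7% and 42.3% of all genes). The median log2 ratio was 0.17, beside 0.04 over all genes, and 35 of the 45 lay above the median gene. Under all 4 scalings 23 were higher (30.4% of all genes) and 9 lower (42.3%). Here TMM, mean UMIs per cell and median-of-ratios factors shift every log2 ratio by -0.11, -0.16 and -0.12 from CPM, all downward. A gene lower by CPM is thus bound to be lower under all 4, and the agreement adds nothing for the 9 genes. The 9 were Orc1, Cdt1, Gmnn, Prim2, Pold2, Pcna, Rfc1, Rfc3 and Rrm1. Counting intervals included equality for Rfc1 (log2 -0.02, -0.05 to 0.004), Rfc3 (-0.04, -0.08 to 0.009) and Rrm1 (-0.02, -0.05 to 0.01). Dscc1 was the 1 member at least 1.5-fold higher at 6 h than at 3 h, where 1.74% of all genes were, and 0 were at least 1.5-fold lower (2.52% of all genes). With mean UMIs per cell the median was 0.01, so the difference in summed levels between 3 h and 6 h (log2 0.16 by CPM) was -0.0004 per cell.

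Origin recognition genes went in opposite directions. Orc5, a subunit of the origin recognition complex (chr5:22486485-22550429, minus strand), was at 23.1, 40.1 and 53.9 CPM, a log2 ratio of 0.80 (95% interval 0.73 to 0.87) and then 1.22 (1.16 to 1.29). Orc1, the largest subunit and the one whose protein is known to be cycle-regulated (chr4:108579423-108614833, plus strand), was at 36.2, 23.8 and 22.1 CPM, log2 ratios of -0.60 (-0.68 to -0.53) and -0.71 (-0.78 to -0.64). The control was the lowest library for Orc5 and the highest for Orc1, and their counting intervals do not overlap with those of the treated libraries. Orc6, which bridges the complex during helicase loading, was at 188, 277 and 366 CPM (log2 0.56 and 0.96). Orc2 was at 112, 120 and 136 CPM, and its sign changed with the scaling. The ratio of Orc6 to Orc1 UMIs within a library, which no scaling alters, was 5.19, 11.6 and 16.5. This pair and those given below were chosen after their values were seen, and the size of a ratio within 1 library does not compare levels, since capture differs by gene. An exon of another gene on the opposite strand overlaps 14 members, Orc1, Orc2, Orc6, Mcm7, Cdc45, Gins2, Pole, Rfc2, Rfc4, Rfc5, Dscc1, Fen1, Lig1 and Chaf1a. Whether the counting used strand is not given in the sources used here, and whether reads of the partner genes are in these 14 genes' values was not tested.

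The loaders Cdc6 and Cdt1 were both higher in the treated libraries, with different courses. Cdc6 was at 37.4, 67.3 and 76.4 CPM, with log2 ratios of 0.85 (0.79 to 0.90) and 1.03 (0.98 to 1.08). Cdt1 was at 134, 230 and 194 CPM, 0.78 at 3 h and 0.53 at 6 h, so that its 3 h library was the highest. Gmnn, which encodes the Cdt1 inhibitor geminin, was at 177, 190 and 153 CPM. Its log2 ratio was 0.10 (0.07 to 0.13) at 3 h, where TMM gave -0.07, and -0.21 (-0.24 to -0.18) at 6 h, lower under all 4 scalings. Cdt1 UMIs were 0.758, 1.21 and 1.27 times those of Gmnn.

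All 6 subunits of the Mcm2-7 helicase were higher by CPM in both treated libraries, by modest amounts. They summed to 1164, 1389 and 1582 CPM, with median log2 ratios of 0.23 and 0.40. Mcm5 (chr8:75109569-75128439, plus strand), the promoter of which is printed above, was at 288, 360 and 444 CPM, with log2 ratios of 0.32 (0.30 to 0.34) and 0.62 (0.60 to 0.64). Mcm2 was at 147, 164 and 176 CPM, 0.16 and 0.26, and its sign reversed under TMM (-0.02 and -0.03). Mcm3 was at 253, 310 and 333 CPM, Mcm7 at 201, 241 and 279, Mcm6 at 134, 152 and 177, and Mcm4 at 141, 161 and 173. These 4 were higher under all 4 scalings at 3 h, and at 6 h all but Mcm4 were. Some of these signs rest on values next to equality. Under median-of-ratios factors Mcm6 was at log2 1.2e-05 and Mcm4 at 0.015 at 3 h, and Mcm4 at -0.002 at 6 h. The subunits form a ring with 1 copy of each, and their share of the 6 genes' UMIs stayed within a few percentage points. Mcm5 took 24.8%, 25.9% and 28.1%, with counting intervals that do not overlap, while Mcm2 took 12.6%, 11.8% and 11.1%.

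The 6 genes that activate the loaded helicase had the highest median of the origin block at 6 h, 0.78, after 0.50 at 3 h (log2). Gins3 (chr8:95633453-95645060, plus strand), a subunit of the GINS complex, was at 18.0, 49.7 and 63.6 CPM, 2.76-fold and 3.53-fold the control. These were the highest ratios of the 45 genes, log2 1.46 (1.39 to 1.54) and 1.82 (1.75 to 1.89), and they stood at percentiles 98.5 and 98.3 of all genes. The other GINS genes had smaller ratios, Gins1 at 23.9, 36.4 and 46.1 CPM, Gins2 at 102, 135 and 168 CPM, and Gins4 at 91.9, 103 and 113 CPM. Gins4 was the lowest of the role, and its sign reversed under 1 or more scalings. Gins3 UMIs were 0.196, 0.480 and 0.564 times those of Gins4, although both proteins belong to 1 complex. Mcm10, a firing factor, was at 74.1, 120 and 130 CPM (log2 0.69 and 0.81), and Cdc45, the helicase cofactor, at 35.0, 42.7 and 58.4 CPM (0.29 and 0.74).

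**Figure D2:**
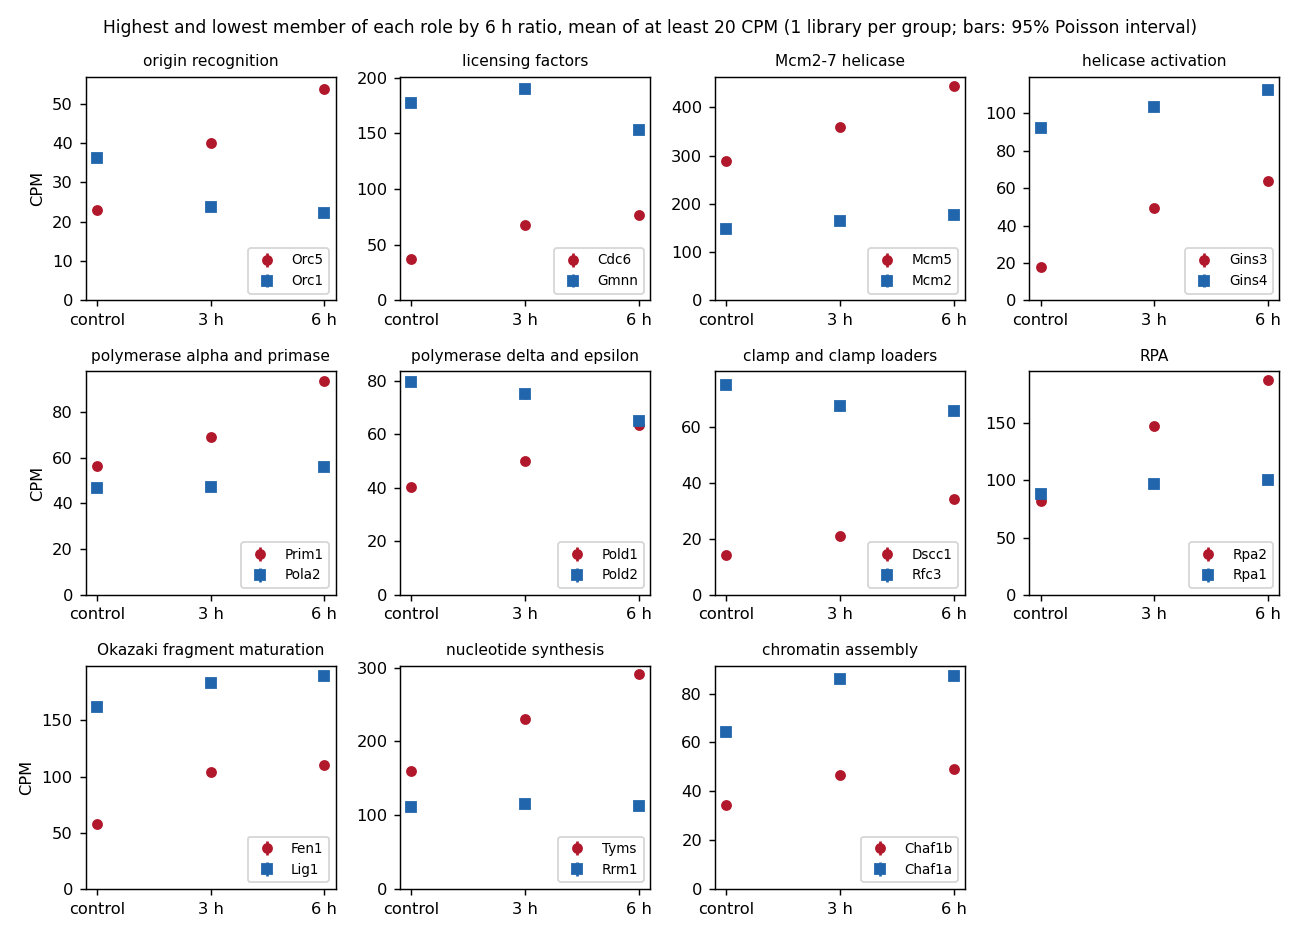
Summed CPM in the control, 3 h and 6 h libraries for the member with the highest (circles) and the lowest (squares) 6 h ratio in each of the 11 roles, among members averaging at least 20 CPM (which leaves out Prim2), with 95% Poisson intervals mostly smaller than the points. Gins3 goes from 18.0 to 63.6 CPM and Orc5 from 23.1 to 53.9, while Orc1, Gmnn, Pold2 and Rfc3 are lower at 6 h than in the control.

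The polymerase and fork genes had lower median ratios than the licensing genes. They summed to 1883, 2145 and 2365 CPM, against 2217, 2824 and 3162 CPM for licensing and firing. Median log2 ratios were 0.18 and 0.37, against 0.30 and 0.53. At 6 h 6 of the 21 fork genes and 9 of the 19 licensing genes were at least 1.5-fold higher, where 22.1% of all genes were, and the share of the fork genes is near that background. Under TMM the fork genes' medians were 0.00 and 0.08, and the difference between the blocks was not tested.

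The 2 subunits of primase, the enzyme that lays down RNA primers, differed in direction. Prim1, the catalytic subunit (chr10:128015168-128030037, plus strand), was at 56.5, 69.1 and 93.7 CPM, with log2 ratios of 0.29 (0.24 to 0.34) and 0.73 (0.69 to 0.77). Prim2, the regulatory subunit, was at 20.3, 16.4 and 15.2 CPM, -0.31 (-0.40 to -0.22) and -0.41 (-0.50 to -0.33), lower under all 4 scalings at both times. Prim1 UMIs were 2.78, 4.22 and 6.16 times those of Prim2. Of the polymerase alpha subunits, Pola1 was at 62.0, 70.8 and 83.2 CPM, and Pola2, at 46.6, 47.0 and 55.9 CPM, had no sign common to the scalings.

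Polymerase delta subunits also differed in direction at 6 h. Pold1, the catalytic subunit, was at 40.0, 49.9 and 63.3 CPM, with log2 ratios of 0.32 (0.26 to 0.37) and 0.66 (0.61 to 0.71). Pold2, an accessory subunit, was at 79.6, 74.9 and 64.9 CPM, -0.09 (changing sign with the scaling) and -0.30 (-0.34 to -0.25). Their UMI ratio was 0.503, 0.666 and 0.975. Pold3 was at 48.6, 61.3 and 64.6 CPM. For polymerase epsilon, the leading-strand enzyme, Pole was at 42.2, 50.1 and 52.7 CPM and Pole2 at 33.2, 37.0 and 42.7 CPM, the latter without a stable sign at 3 h.

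Pcna, the sliding clamp, and the large clamp loader subunit Rfc1 stood near the control, while at 6 h the other loader subunits were higher or, for Rfc3, lower under all 4 scalings. Pcna was at 295, 309 and 300 CPM, a log2 ratio of 0.07 (0.05 to 0.09) and 0.03 (0.00 to 0.05), and its sign changed with the scaling at both times. Rfc1 was at 183, 181 and 178 CPM, likewise without a stable sign. Rfc3 was at 75.1, 67.4 and 65.8 CPM, -0.16 (changing sign with the scaling) and -0.19. Rfc2, in contrast, was at 101, 122 and 161 CPM (0.27 and 0.67), with Rfc4 at 136, 147 and 176 CPM and Rfc5 at 144, 175 and 190 CPM. Dscc1, a subunit of an alternative clamp loader linked to sister chromatid cohesion (chr15:55076099-55090491, minus strand), was at 14.3, 21.2 and 34.2 CPM. Its log2 ratios were 0.57 (0.47 to 0.66) and 1.26 (1.18 to 1.34) to the control, and 0.69 (0.62 to 0.76) between 3 h and 6 h.

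Replication protein A, the trimer that coats single-stranded DNA, was uneven. Rpa2 (chr4:132768332-132778752, plus strand) was at 82.1, 147 and 188 CPM, with log2 ratios of 0.84 (0.81 to 0.88) and 1.19 (1.16 to 1.23). Rpa1, at 88.0, 96.6 and 100.4 CPM, and Rpa3, at 116, 114 and 134 CPM, had no sign common to the scalings. Rpa2 UMIs were 0.932, 1.53 and 1.87 times those of Rpa1. Of the genes that finish Okazaki fragments, the flap nuclease Fen1 was at 58.0, 104 and 110 CPM (0.85 and 0.93). The ligase Lig1 was at 162, 183 and 190 CPM (0.18 and 0.23), without a sign common to the scalings.

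**Figure D3:**
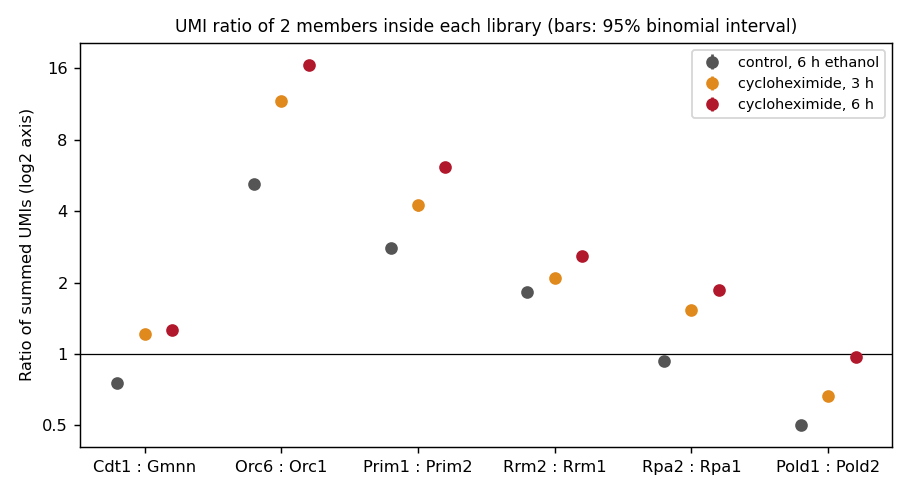
Ratio of summed UMIs of 2 members within each library on a log2 axis, with 95% binomial intervals smaller than the points. All 6 ratios are lowest in the control and highest at 6 h, Orc6 to Orc1 going from 5.19 to 16.5. The pairs were chosen after their values were seen.

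Nucleotide synthesis genes differed by gene as well. Tyms, thymidylate synthase, was at 160, 231 and 291 CPM, with log2 ratios of 0.53 (0.50 to 0.56) and 0.86 (0.84 to 0.89). Rrm2, the regulated small subunit of ribonucleotide reductase, was at 203, 239 and 291 CPM, 0.24 (0.21 to 0.26) and 0.52 (0.50 to 0.54). Rrm1, the large subunit, was at 111, 115 and 113 CPM, 0.04 and 0.02, and its sign changed with the scaling. The ratio of Rrm2 to Rrm1 UMIs was 1.83, 2.09 and 2.57. The chromatin assembly factor genes, whose proteins place histones on new DNA, were alike. Chaf1a was at 64.3, 85.9 and 87.2 CPM (0.42 and 0.44) and Chaf1b at 34.3, 46.8 and 49.1 CPM (0.45 and 0.52). Both were higher than the control under all 4 scalings at each time, and the sign of their difference between 3 h and 6 h changed with the scaling.

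The higher level held across cells rather than in a few. With every cell thinned to 15000 UMIs, the median control cell held 70 UMIs of the 45 genes (quartiles 62 and 79). It held 85 (75 and 95) after 3 h of drug, and 95 (84 and 105) after 6 h. Of the 3 h cells 85.5%, and of the 6 h cells 93.6%, were above the control median, as were 49.0% of the control cells themselves. Thinning gives every cell the same total, as CPM does, and these shares were not computed under other scalings. By CPM the summed members were at log2 0.28 and 0.44 to the control, and the medians of all genes at 0.11 and 0.17. By TMM the summed members were at 0.11 and 0.16. Of the 6 h cells 71.7% were above the 3 h median. The median cell had UMIs of 30, 33 and 34 of the 45 genes, and every kept cell had at least 1 member UMI. Unthinned, the medians were 205, 302 and 299 UMIs.

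**Figure D4:**
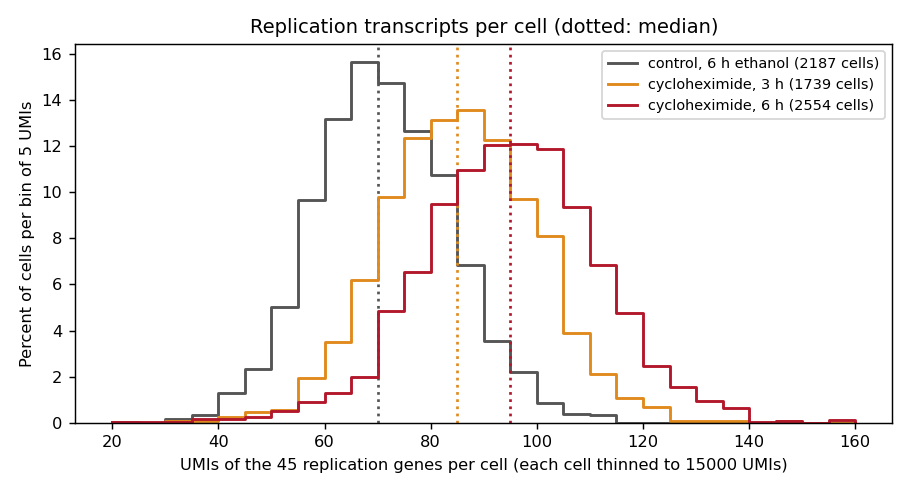
Percent of cells per bin of 5 UMIs of the 45 genes, each cell thinned to 15000 UMIs, for control (grey, 2187 cells), 3 h (orange, 1739 cells) and 6 h libraries (red, 2554 cells); dotted lines are the medians, 70, 85 and 95. Each library forms 1 peak, and the whole distribution lies farther right at 3 h and at 6 h.

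The share of cells with a UMI followed the same order for the genes with the largest ratios. In thinned cells Gins3 was detected in 23.3% (Clopper-Pearson 21.6 to 25.2), 52.1% (49.7 to 54.5) and 59.2% (57.3 to 61.1) of cells. Orc5 was detected in 27.3%, 45.1% and 55.2% of cells, Dscc1 in 19.4%, 26.4% and 38.1%, and Rpa2 in 68.8%, 87.1% and 91.6%. Orc1 went the other way, with 41.3%, 28.7% and 27.2%. Over the 45 genes the thinned share was above the control's in 38 and below it in 7, at each time, where it was above in 64.4% of all genes at 3 h and in 63.3% at 6 h. The median share over the members was 71.4%, 80.9% and 80.9% thinned, and 95.2%, 97.7% and 97.5% unthinned. Barcodes with 10 to 100 UMIs, taken as free RNA, held the members at a sum of 4564, 5533 and 6154 CPM, close to the sum in the cells of the same library. Single genes differed more, and 28, 25 and 30 of the 45 were lower in free RNA than in cells. Orc5 was at 40.3, 68.1 and 71.7 CPM in free RNA, and at 23.1, 40.1 and 53.9 CPM in cells. No cell type lacking the 45 genes was present to set a background share.

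Mitosis genes, whose level varies with the cell cycle, had lower CPM in the treated libraries. Of 29 such genes 26 were lower by CPM at 3 h and 24 at 6 h, where 35.9% of all genes were. Their median log2 ratios were -0.22 and -0.31 by CPM, -0.40 and -0.59 by TMM, and 0.05 and -0.20 per cell, so that the sign of the 3 h median depends on the scaling. Under all 4 scalings 13 were lower and 16 changed sign at 3 h, where 10.9% of all genes were lower. At 6 h 22 were lower, 1 was higher and 6 changed sign, where 28.4% of all genes were lower. At least 1.5-fold lower at 6 h by CPM were 8, where 7.79% of all genes were. Plk1, a mitotic kinase, was at 114, 60.9 and 43.3 CPM. The cells with at most 48 mitosis UMIs in 15000, the median over all 3 libraries, were 31.2%, 51.0% and 67.2% of the libraries. This cut is a range on a continuous score and not a cell cycle phase, and 397, 414 and 641 cells lay within 5 UMIs of it.

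Within each of these 2 sets of cells the summed replication genes were higher in the treated libraries. Among cells at or below 48, the mean was 74.4, 88.2 and 94.8 member UMIs, and among those above it 69.2, 82.1 and 94.3. The median log2 ratio at 6 h was 0.35 in the low set and 0.39 in the high set, beside 0.41 in all cells. At 3 h it was 0.27 and 0.21. Over all genes the medians were 0.18 and 0.20 at 6 h, and 0.13 and 0.12 at 3 h. At 6 h 13 of the 45 genes were at least 1.5-fold higher in the low set, where 23.2% of all genes were, and 18 in the high set, where 24.2% were. The count in the low set is near its background. Gins3 was at 1.90 (1.67 to 2.15) and 1.84 (1.68 to 2.01), Orc5 at 1.38 and 1.30, Rpa2 at 1.24 and 1.11, and Orc1 at -0.92 and -0.63. Pcna was at -0.18 (-0.24 to -0.12) in the low set and 0.08 (0.02 to 0.14) in the high set. Rrm1 also had opposite signs, -0.10 (-0.199 to -0.002) in the low set and 0.12 (0.03 to 0.22) in the high set. Rfc1 was at -0.02 (-0.10 to 0.06) and 0.02 (-0.06 to 0.09), so that neither interval excludes equality. Differences in cell cycle stage within the sets were not tested.

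**Figure D5:**
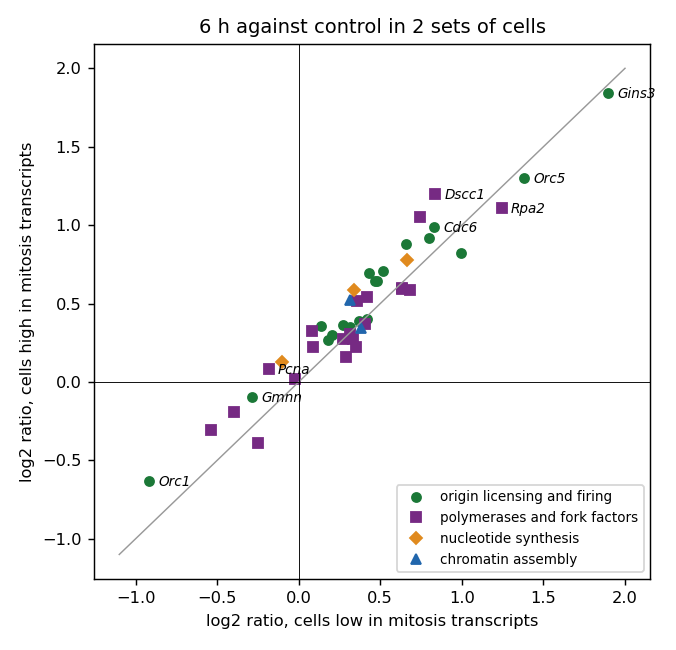
Log2 ratio of each of the 45 genes at 6 h against control in cells with at most 48 mitosis UMIs (x axis) and in cells above that (y axis), with colours for the blocks of genes and a line of equality. The points lie along the line, from Orc1 at -0.92 and -0.63 to Gins3 at 1.90 and 1.84.

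A further list of 40 replication genes, covering other origin, fork and nucleotide factors, had medians close to those of all genes. Of its 39 genes at the floor of 10 CPM, 31 were higher and 8 lower at 3 h, and 30 higher and 9 lower at 6 h. Among all genes 64.1% were higher and 35.9% lower at each time. The medians were 0.15 and 0.22 by CPM, beside 0.11 and 0.17 over all genes, and -0.02 and -0.06 by TMM. At 6 h 18 were higher and 9 lower under all 4 scalings (39.4% and 28.4% of all genes). At least 1.5-fold higher at 6 h were 10, where 22.1% of all genes were, a share near the background. At least 2-fold higher at 6 h were 3 genes of this list, where 8.65% of all genes were, and each averaged under 20 CPM. The 1 gene at least 2-fold lower was Shmt1, a serine hydroxymethyltransferase that supplies one-carbon units for thymidylate. It was at 73.6, 39.0 and 23.7 CPM, while Tyms, which uses those units, was at 160, 231 and 291 CPM. Of 20 other G1/S genes at the floor, 12 were higher and 8 lower at each time, shares near those same 64.1% and 35.9% of all genes. Their medians were 0.12 and 0.08, beside 0.11 and 0.17 over all genes.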

How the data were processed

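The authors deposited 3 unfiltered matrices, 1 per library, of raw UMI counts by gene and by barcode. Cell Ranger 4.0.0 and mm10 are named in the submitters' processing notes; other settings of the counting are not given in the sources used here. Each matrix lists 32285 genes and 6794880 barcodes, and the libraries held 127601369 (control), 115188502 (3 h) and 150987519 UMIs (6 h), of which 87.3%, 92.8% and 92.9% were in kept barcodes.

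Barcodes with at least 15000 UMIs and 1 to 20% mitochondrial UMIs were kept, and UMIs were summed per gene. The lower mitochondrial limit removed 62, 1 and 8 barcodes. Doublets were not removed. CPM scales a library's summed UMIs to a common total, and log2 ratios used a prior of 0.5 counts. Intervals (95%) are exact Poisson for CPM, conditional binomial for ratios and Clopper-Pearson for shares. Fold thresholds and medians were taken over genes averaging 10 CPM or more, which all 45 members passed. Per-cell values used 1 random thinning to 15000 UMIs. TMM factors came from edgeR 4.0.16 (R 4.3.3); other steps used Python 3.11.15, numpy 2.4.6 and scipy 1.17.1. The ratio and interval steps were tested on simulated data. Alternatives were other scalings, UMI, mitochondrial and CPM limits, priors, thinning depths, free RNA subtraction and sets of cells by mitosis UMIs.

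Values in all 3 libraries were fixed for the highest and lowest member of each role at 6 h with a mean of at least 20 CPM, members with opposite signs or at least 1.5-fold lower, and other listed genes at least 2-fold changed at 6 h. Any of the 45 members could be named besides, Prim2 (under 20 CPM on average) included. The members and lists were chosen with earlier results of these data known. Gene positions are GENCODE M21 (GRCm38), matched by identifier (32158 of 32285), and promoters are RefSeq on GRCm38.p6.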

Additional observations from a re-analysis of the deposited data

Results flagged for a closer look

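Gmnn had opposite signs at the 2 times, with log2 ratios to the control of 0.10 (3 h) and -0.21 (6 h), and a ratio of -0.31 between the treated libraries. The 3 h value was -0.07 under TMM scaling, while the 6 h value was negative under all 4 scalings. The difference between 6 h and 3 h was also negative under all 4, with a counting interval by CPM of -0.34 to -0.29. For that difference each other scaling only moves a ratio down from CPM, so their agreement adds nothing. With 1 library per time the difference was not tested.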

How the results depend on the processing

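Scaling moved the values most. The median log2 ratio of the 45 genes was 0.26 at 3 h, 0.41 at 6 h and 0.17 at 6 h against 3 h by CPM. It was 0.088, 0.12 and 0.063 with TMM factors, 0.082, 0.11 and 0.056 with median-of-ratios size factors, and 0.53, 0.52 and 0.014 with mean UMIs per barcode. No median changed sign in these or the other alternatives run. The count of genes at least 1.5-fold higher at 3 h was 8 by CPM, where 13.9% of all genes were, and 17 with mean UMIs per barcode. That scaling raises the 3 h log2 ratio of every gene by 0.27, and the share of all genes under it was not computed. At 6 h the count went from 16 (22.1% of all genes) to 8 with TMM (11.6%) and with median-of-ratios factors. A floor of 50 CPM, which kept 34 members, gave 5 genes at 3 h and a median of 0.12 at 6 h against 3 h. The share of all genes at that floor was not computed. In barcodes low in mitosis UMIs the medians were 0.35 at 6 h and 0.13 at 6 h against 3 h, and in those high in them 0.21 at 3 h. Unthinned counts gave medians of 205, 302 and 299 member UMIs per cell. Other UMI minimums, mitochondrial limits, the prior, free RNA subtraction, removal of barcodes above 2 times the median UMIs, another thinning depth and another seed moved none of these values by more than the limits set for calling them moved. No paired analysis was possible because each group had 1 library.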

Other observations

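The 62 control barcodes with at least 15000 UMIs and under 1% mitochondrial UMIs, left out above, had a median of 110694 UMIs and held the members at 3683 CPM, below the 4673 CPM of the kept control cells. Below the first and above the third quartile of UMIs per cell, the median thinned cell held 74 and 69 member UMIs in the control, 80 and 86 at 3 h, and 89 and 97 at 6 h.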
